A study of Mus musculus with 10 samples.

Results

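CD11b+ dendritic cells of the mouse mammary gland were compared, gene by gene, with each of the 4 other cell populations sorted from the same tissue, and the genes in which they stood above or below all 4 are described. The CD11b+ cells make up 2 of the 10 libraries of the study and were chosen by their sorting label. The other 8 libraries were 2 each of macrophages of the ducts, macrophages of the stroma, and dendritic cells without CD11b that were CD103+ (hereafter CD103+ cells) or CD103- (hereafter CD103- cells). Every library held total RNA of freshly sorted cells from adult, virgin, female C57BL/6 mice with no other treatment in the labels. The replicates are called biological, and the labels do not say whether each was 1 mouse or a pool, or how the gates were drawn beyond the marker names.

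Dendritic cells take up antigen in tissue, carry it to lymph nodes and present it to T cells on MHC class II. Conventional dendritic cells fall into a type 1 lineage, which depends on the transcription factors IRF8 and BATF3 and takes up dead cells and cross-presents, and a type 2 lineage, which carries CD11b and SIRPα, depends in part on IRF4 and primes CD4+ T cells. CD11b is also found on monocytes, on the dendritic-like cells that monocytes give rise to, and on many macrophages, so a gate on CD11b can hold more than one lineage.

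Total counts were 15849123 and 5745085 in the CD11b+ libraries and 5636092 to 23093742 over all 10. Counts were scaled by library size to CPM with TMM factors of 0.779 to 1.36, and 3 counts correspond to 0.206 and 0.539 CPM in the CD11b+ libraries. Mitochondrial genes took 3.22% and 1.88% of the counts of the CD11b+ libraries, 24.8% and 23.1% in the stromal macrophages and 0.631% to 6.29% in the other 6. Sums of marker genes of other cell types were compared over the libraries. Luminal epithelial genes summed to 741 and 1803 CPM in the CD11b+ cells, within the range of the other libraries (248 to 2867), and 8 of 12 neutrophil genes, among them S100a8, S100a9 and Ly6g, were at 0 counts in both CD11b+ libraries. The neutrophil list summed to 65.8 and 177 CPM in the CD11b+ cells. Most of it came from Ltf (41.2 and 144 CPM, against 9.57 to 308 elsewhere). Retnlg was highest in the CD11b+ cells (23 and 30.3 CPM, against 0 to 10.3 elsewhere). Marker levels were not part of any fit, and their part in the results was not tested.

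The sorting label was first set against the genes of the sorting markers. Itgam, which encodes CD11b, was at 701 and 556 CPM in the CD11b+ cells, 7.74 and 9.27 in the ductal macrophages, 117 and 102 in the stromal macrophages, 9.45 and 7.28 in the CD103+ cells and 10.8 and 11.4 in the CD103- cells. Both CD11b+ libraries lay above all 8 others, as the gate selects for. Itgae, which encodes CD103, was at 1.1 and 0.359 CPM in the CD11b+ cells and 158 and 172 CPM in the CD103+ cells. Itgax, the CD11c gene, was at 134 and 77.6 CPM in the CD11b+ cells, 162 and 146 in the CD103+ cells and 116 and 91.8 in the CD103- cells, against 847 and 610.2 in the ductal and 0.166 and 0.231 in the stromal macrophages.

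The defining genes of dendritic cells and of macrophages were then read in the CD11b+ cells. Flt3, the growth factor receptor of conventional dendritic cells, was at 16.8 and 18.1 CPM in the CD11b+ cells, 1.14 and 2.27 in the ductal macrophages, 0.442 and 0 in the stromal macrophages, 314 and 520.2 in the CD103+ cells and 416 and 342 in the CD103- cells. The CD11b+ cells thus lay between the macrophages and the other dendritic cells, with a log2 fold change of -4.58 ± 0.48 against CD103+ cells and 6.22 ± 0.64 against stromal macrophages (edgeR's quasi-likelihood test, Benjamini-Hochberg adjusted p = 0.000131 and 8.37e-05). Zbtb46, a transcription factor gene of the conventional lineage, was at 19.3 and 8.98 CPM in the CD11b+ cells. It was at 1.59 and 1.89 CPM in the ductal and 7.62 and 6.75 CPM in the stromal macrophages. The 4 libraries of the other dendritic cells held 55.9 to 75.8 CPM. Without CD11b+ replicate 1 the Zbtb46 log2 fold change against stromal macrophages was 0.32. C1qa, a complement gene of tissue macrophages, was at 15.1 and 34.1 CPM in the CD11b+ cells, 4254 and 3952 in the ductal macrophages, 1874 and 1329 in the stromal macrophages, 5.0 and 2.38 in the CD103+ cells and 3.11 and 1.54 in the CD103- cells. CD11b+ cells were far below both macrophage populations in it, with log2 fold changes of -7.40 ± 0.59 against ductal and -6.05 ± 0.56 against stromal macrophages (adjusted p = 1.19e-05 and 4.45e-05). Fcgr1, the CD64 gene used to tell macrophages from dendritic cells, was at 2.54 and 2.69 CPM in the CD11b+ cells and 103.4 to 152 CPM in the 4 macrophage libraries.

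Other macrophage genes were not low beside the stromal macrophages. Csf1r, whose product binds the growth factor CSF1 of macrophages, was at 551 and 566 CPM in the CD11b+ cells, 614 and 359 in the stromal macrophages and 10.8 to 42.6 in the CD103+ and CD103- libraries. Mrc1, the mannose receptor CD206, was at 681 and 495 CPM in the CD11b+ cells, 1190.4 and 777 in the stromal macrophages and at most 2.46 in the other dendritic cells. The adhesion receptor gene Adgre1, which encodes F4/80, was at 331 and 253 CPM, beside 386 and 231 in the stromal macrophages. Csf1r, Mrc1 and Adgre1 differed from the CD103- cells by 5.23 ± 0.54, 8.11 ± 0.44 and 6.68 ± 0.52 on the log2 scale, and none of the 3 passed the test against stromal macrophages (edgeR adjusted p = 0.78, 0.105 and 0.91). The label as dendritic cells was therefore matched in part: Flt3 and Zbtb46 were present below the level of the other dendritic cells, and part of the macrophage genes were at the level of stromal macrophages. In the second CD11b+ library Zbtb46 was near the level of the stromal macrophages. In bulk RNA, fewer cells of a type and less RNA per cell cannot be told apart.

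**Figure D1:**
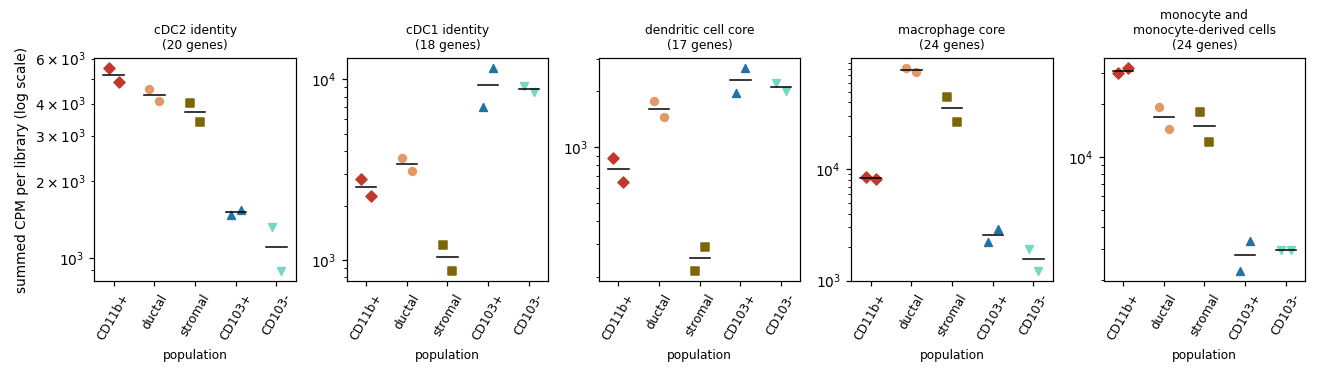
Summed CPM per library (log scale) of 5 lists of marker genes in the 5 populations; each point is 1 library and each line the mean of 2. The CD11b+ cells were highest in the type 2 dendritic cell list (5489 and 4865 CPM) and the monocyte list (30169 and 31885 CPM). The type 2 list holds Itgam, selected by the gate, at 701 and 556 CPM in the CD11b+ cells. It also holds Epcam, a gene of the luminal epithelial list, at 113 and 267 CPM in the CD11b+ cells. In the macrophage list the CD11b+ cells (8519 and 8150 CPM) lay between the macrophages and the other dendritic cells.

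Summed over lists, the same picture held with exceptions. The list of type 2 dendritic cell genes summed to 5489 and 4865 CPM in the CD11b+ cells and 889 to 4566 CPM in the other 8 libraries. It holds Itgam, selected by the gate, at 701 and 556 CPM in the CD11b+ cells. In CD11b+ replicate 2 the lead over ductal replicate 1, at 4566 CPM, was smaller than Itgam alone. The list also holds Epcam, which is in the luminal epithelial list too. Epcam was at 113 and 267 CPM in the CD11b+ cells and 65.4 and 75.7 CPM in the ductal macrophages. The largest members of the list in the CD11b+ cells were Cd209a and Tmem176b. Tmem176b was higher in ductal macrophages, at 1646 and 1606 CPM, than in the CD11b+ cells, at 949.8 and 916 CPM. Of its 20 members, 3 were called higher than in all 4 populations (0.561% of all tested genes), Itgam, Cd209a and H2-DMb2. The list of dendritic cell core genes summed to 870 and 650.0 CPM in the CD11b+ cells and 1960.4 to 2659 CPM in the other dendritic cells. It summed to 1769 and 1449 CPM in the ductal macrophages, above the CD11b+ cells, and 215 and 289 CPM in the stromal macrophages. Of its 17 members, 13 were lower than in CD103+ cells and 11 lower than in CD103- cells (9.54% and 7.93% of all tested genes). The monocyte list summed to 30169 and 31885 CPM, above the 2262 to 19269 CPM of the other libraries, but Lyz2 gave 22099 and 24012 CPM of it. Lyz2, the myeloid lysozyme gene, was at 16651 and 11467 CPM in the ductal macrophages, with no call between these (adjusted p = 0.289).

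Against all 4 other populations at once, 88 of 15681 tested genes were called higher in CD11b+ cells (0.561%) and 36 lower (0.23%), taking for each gene the largest p of the 4 pairwise tests (edgeR, quasi-likelihood) with Benjamini-Hochberg adjustment. At an unadjusted p under 0.05 there were 539 higher and 327 lower genes. In all 88 both CD11b+ libraries lay above the 8 others, and in all 36 below. A call over all 4 populations favours such a separation, which is therefore no separate support. Among all 15681 tested genes, 1434 had both CD11b+ libraries above all others and 904 below, at any p. Against single populations, 1788 genes were higher (11.4%) and 1862 lower (11.9%) than in ductal macrophages, 2272 higher (14.5%) and 1825 lower (11.6%) than in stromal macrophages, 1761 higher (11.2%) and 1496 lower (9.54%) than in CD103+ cells, and 1509 higher (9.62%) and 1243 lower (7.93%) than in CD103- cells. The 4 comparisons share the CD11b+ libraries. For 40 of the 88 higher genes the nearest population was the stromal macrophages, for 19 the CD103+ cells, for 18 the ductal macrophages and for 11 the CD103- cells. The smallest of the 4 log2 fold changes had a median of 2.38 over the higher genes and -1.95 over the lower genes.

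The calls over all 4 populations rested on few libraries. When each library was left out in turn, 13 higher genes and 1 lower gene kept their call in all 10 fits. Without CD11b+ replicate 1 there were 16 higher genes and 1 lower, and without CD11b+ replicate 2 there were 14 and 2. Leaving out a CD103-, CD103+ or ductal library left 35 to 56 higher genes and 16 to 23 lower genes. Leaving out stromal replicate 1 or 2 left 98 or 80 higher genes and 35 or 34 lower genes. Near the threshold, Rac2, a small GTPase gene of blood cells, passed with 685 and 754 CPM in the CD11b+ cells against 130.3 to 319 elsewhere, while Relt, a member of the TNF receptor family, did not, with 181 and 226 CPM against 12.7 to 88.2.

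**Figure D2:**
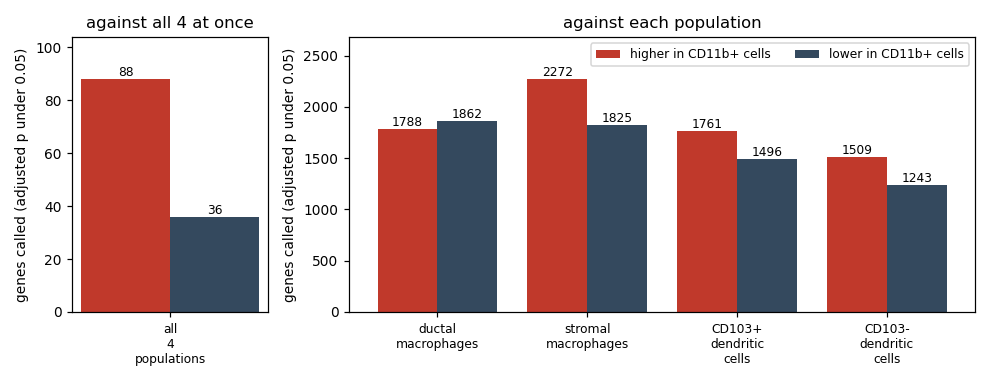
Genes called at an adjusted p under 0.05 in CD11b+ cells, as bars of the number higher and lower, against all 4 other populations at once (left) and against each population (right). The counts against all 4, 88 and 36, are far smaller than the 1243 to 2272 against single populations.

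Ear2, one of the 13 higher genes that kept their call in every fit, encodes a ribonuclease of the eosinophil-associated family (GRCm38, chromosome 14, 44102654 to 44103531). It was at 2269 and 2430.3 CPM in the CD11b+ cells, 4.33 and 8.89 in the ductal macrophages, 11.2 and 6.81 in the stromal macrophages, 14.3 and 22.5 in the CD103+ cells and 9.94 and 11.7 in the CD103- cells. Both CD11b+ libraries were far above every other, the nearest being the CD103+ cells. The smallest log2 fold change was 7.0 ± 0.45 (SE) (adjusted p = 0.000136). Ear genes are near-identical copies, so counting could split or share their reads, and values of Ear2 and Ear10 are uncertain to that degree. A list of 8 eosinophil genes summed to 28.6 and 13.3 CPM in the CD11b+ cells against 1.27 to 8.12 elsewhere, with Epx, the eosinophil peroxidase gene, at 0 in both CD11b+ libraries and Siglecf at 16.02 and 5.57 CPM. The list itself holds the Ear genes Ear1, at 6.74 and 4.49 CPM in the CD11b+ cells, and Ear6, at 0.138 and 0.18 CPM. The part of the eosinophil genes in the Ear2 result was not tested.

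Fn1, the gene of the matrix protein fibronectin (chromosome 1, 71585473 to 71653280), was at 2305 and 2008 CPM in the CD11b+ cells, 22.1 and 47.9 in the ductal macrophages, 31.5 and 67.4 in the stromal macrophages, 40.5 and 26.9 in the CD103+ cells and 31.6 and 10.6 in the CD103- cells. No other library came near the CD11b+ ones, and the smallest log2 fold change was 5.45 ± 0.63 (adjusted p = 0.00329). The list of 9 fibroblast genes did not move with it, at 306 and 541 CPM in the CD11b+ cells and 375 to 1667 CPM elsewhere. Lyz1, a second lysozyme gene beside Lyz2 (chromosome 10, 117287795 to 117292868), was at 2325 and 3607 CPM in the CD11b+ cells, 130.1 and 84.4 in the ductal macrophages, 92.2 and 58.9 in the stromal macrophages, 28.1 and 63.3 in the CD103+ cells and 39.4 and 33.6 in the CD103- cells. The groups did not overlap, with a smallest log2 fold change of 4.79 ± 0.48 against ductal macrophages (adjusted p = 0.00188). Lyz1 and Lyz2 are close copies, and Lyz2 was high in every CD11b+ and macrophage library, so that reads assigned to the wrong copy could raise or lower Lyz1.

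S100a4, a calcium-binding protein of motile cells (chromosome 3, 90603770 to 90606045), was at 529 and 529 CPM in the CD11b+ cells, 45.1 and 34.8 in the ductal macrophages, 48 and 40.5 in the stromal macrophages, 17.1 and 26 in the CD103+ cells and 29.8 and 38.3 in the CD103- cells. The CD11b+ libraries were equal to each other and about an order of magnitude above the rest, with a smallest log2 fold change of 3.58 ± 0.29 (adjusted p = 0.000484). Hopx, an atypical homeodomain protein that does not bind DNA itself (chromosome 5, 77086986 to 77115123), was at 227 and 199 CPM in the CD11b+ cells, 0.683 and 2.08 in the ductal macrophages, 9.22 and 8.31 in the stromal macrophages, 10.2 and 16.1 in the CD103+ cells and 11.8 and 13 in the CD103- cells. It was low in ductal macrophages and intermediate in the other 3 populations, and its smallest log2 fold change was 4.02 ± 0.33 (adjusted p = 0.000484). Tnip3, an inhibitor of NF-κB signalling that binds A20 (chromosome 6, 65590398 to 65634040), was at 976 and 539 CPM in the CD11b+ cells, 36.2 and 38.8 in the ductal macrophages, 9.16 and 11.2 in the stromal macrophages, 43.2 and 74.7 in the CD103+ cells and 26.7 and 23.9 in the CD103- cells. The CD11b+ libraries differed from each other in Tnip3 but lay above the rest, by at least 3.68 ± 0.36 on the log2 scale (adjusted p = 0.00178).

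Flrt3, an adhesion molecule with leucine-rich repeats, was at 277 and 127 CPM in the CD11b+ cells and 2.73 to 19.2 CPM elsewhere. Tmem154, a transmembrane protein gene, was at 117 and 128 CPM against 1.7 to 10.3 CPM, with smallest log2 fold changes of 3.62 ± 0.38 for Flrt3 and 3.76 ± 0.38 for Tmem154. Rras2, a GTPase of the Ras family, was at 215 and 258 CPM against 23.1 to 47.2 CPM. Adssl1, an enzyme of AMP synthesis, was at 269.6 and 288 CPM against 21.1 to 62.0 CPM. Rras2 and Adssl1 had smaller differences, of 2.48 ± 0.26 and 2.36 ± 0.27. The other 3 of the 13 were Itgam, selected by the gate, and Batf and H2-DMb2, described below with their families.

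**Figure D3:**
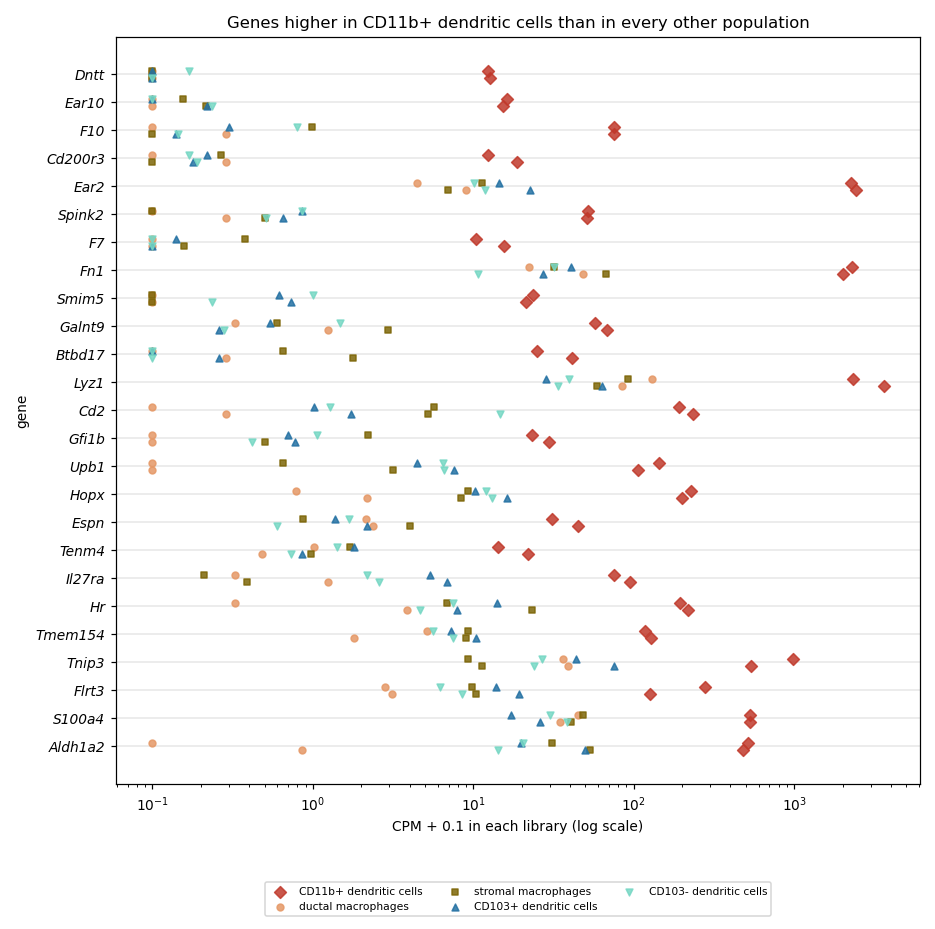
CPM plus 0.1 in each library (log scale) of the 25 named genes with the largest smallest difference among those called higher in CD11b+ cells; each symbol is 1 library and shapes mark populations. Both CD11b+ libraries lie to the right of all 8 others in each gene, as in Ear2, Fn1 and Lyz1.

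Several genes were close to absent outside the CD11b+ cells. Dntt, the gene of terminal deoxynucleotidyl transferase, known for adding bases at V(D)J joints of lymphocytes, was at 12.2 and 12.6 CPM in the CD11b+ cells. It had 0 counts in the ductal, stromal and CD103+ libraries and 1 count in the CD103- libraries. Set against 3 counts over the 2 libraries of a population, a limit that covers counting error alone, it was at least 40.0-fold higher than in ductal macrophages, at least 147-fold higher than in stromal macrophages and at least 209-fold higher than in CD103+ cells. The adjusted p was 0.0331, and the call was lost in each of the 8 fits that left out a library other than a stromal one (adjusted p 0.0575 to 0.340). T cell genes summed to 14.3 and 10.95 CPM in the CD11b+ cells and 1.04 to 14.6 CPM elsewhere, and B cell genes to 10.5 and 10.6 CPM against 17.8 to 339 CPM. Ear10, a copy of Ear2, was at 16.1 and 15.3 CPM in the CD11b+ cells and at most 0.136 CPM elsewhere, with an adjusted p of 0.0221 that rose to 0.0533 to 0.241 in 7 of the 10 fits, those without CD103+ replicate 1 or any CD103-, CD11b+ or ductal library.

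Coagulation factor genes were among these. F10, the gene of factor X, was at 75.3 and 75.2 CPM in the CD11b+ cells, 0 and 0.189 in the ductal macrophages, 0.883 and 0 in the stromal macrophages, 0.198 and 0.0396 in the CD103+ cells and 0.69 and 0.0452 in the CD103- cells. Its smallest log2 fold change was 7.37 ± 1.03 (adjusted p = 0.011), with the call lost without either CD11b+ library (0.115 and 0.101), either ductal library (0.128 and 0.120) or CD103+ replicate 2 (0.0565). F7, the gene of factor VII and the neighbour of F10 on chromosome 8, was at 10.3 and 15.4 CPM in the CD11b+ cells and at most 0.276 CPM elsewhere. F7 was at least 41.5-fold higher than in ductal macrophages and at least 157-fold higher than in CD103- cells (adjusted p = 0.0265), and kept its call in 1 of 10 fits, that without stromal replicate 1 (adjusted p 0.0509 to 0.327 in the rest).

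Spink2, a serine protease inhibitor gene, was at 51.9 and 51.2 CPM in the CD11b+ cells and at most 0.759 CPM elsewhere, with a smallest log2 fold change of 6.28 ± 0.72 (adjusted p = 0.00309; 0.0701 and 0.0602 without CD11b+ replicate 1 and 2). Il27ra, a chain of the interleukin 27 receptor, was at 74.8 and 94.6 CPM against 0.110 to 6.73 CPM, a smallest difference of 3.82 ± 0.40 (adjusted p = 0.00188; 0.0589 without CD11b+ replicate 2). Cd2, an adhesion receptor known from T cells, was at 192 and 234 CPM against at most 14.6 CPM (adjusted p = 0.0221). Leaving out any CD11b+ or ductal library, CD103+ replicate 1 or stromal replicate 2 ended the Cd2 call (0.0530 to 0.184). These 3 genes had no overlap between the CD11b+ libraries and the others.

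Upb1, an enzyme of pyrimidine breakdown, was at 142 and 107 CPM, at least 402-fold above ductal macrophages and against 0.552 to 7.48 CPM in the other 3 populations (adjusted p = 0.0107). Its call was lost in the 6 fits without a CD11b+, CD103+ or CD103- library (0.0565 to 0.127). The other named genes by size of difference were Cd200r3, Smim5, Galnt9, Btbd17, Gfi1b, Espn, Tenm4 and Hr, at 12.2 to 218 CPM in the CD11b+ libraries, with adjusted p of 0.0154 to 0.0393. Among them Gfi1b, a zinc finger repressor of blood cell development, was at 23.2 and 29.4 CPM in the CD11b+ cells and at most 2.1 CPM elsewhere, and Hr, a nuclear corepressor, at 194 and 218 CPM against at most 23 CPM. Each of these 8 calls was lost without either CD11b+ library (0.129 to 0.365) and in 2 to 7 other fits without a ductal, CD103+, CD103- or stromal library (0.0505 to 0.324).

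Promoter windows, from 250 bases before to 50 after the RefSeq start site on GRCm38.p6, were searched for motifs of the factor families that act in dendritic cells, on both strands. The windows of 68 of the 88 higher and 30 of the 36 lower genes were in the table. The 3 windows below are shown because they belong to Cd209a, a type 2 dendritic cell gene, and to Ear2 and Tnip3, which kept their calls in every fit, and because each holds a different motif, in capitals. Cd209a (chr8:3748935-3749234, minus strand) holds the ETS-IRF composite element GGAANNGAA, bound by PU.1 with IRF4 or IRF8, on each strand once, at 152 and 8 bases before the start. Ear2 (chr14:44102404-44102703, plus strand) holds the interferon response core GAAANNGAA at 105 bases before the start. Tnip3 (chr6:65590148-65590447, plus strand) holds the PU.1 site GAGGAAGT on the other strand at 166 bases before the start.
Cd209a: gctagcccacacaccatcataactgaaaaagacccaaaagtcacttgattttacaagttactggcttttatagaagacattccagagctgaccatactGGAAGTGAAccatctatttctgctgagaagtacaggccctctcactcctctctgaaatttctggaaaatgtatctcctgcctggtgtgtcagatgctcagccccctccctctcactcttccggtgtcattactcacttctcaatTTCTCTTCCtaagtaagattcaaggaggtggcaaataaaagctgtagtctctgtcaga
Ear2: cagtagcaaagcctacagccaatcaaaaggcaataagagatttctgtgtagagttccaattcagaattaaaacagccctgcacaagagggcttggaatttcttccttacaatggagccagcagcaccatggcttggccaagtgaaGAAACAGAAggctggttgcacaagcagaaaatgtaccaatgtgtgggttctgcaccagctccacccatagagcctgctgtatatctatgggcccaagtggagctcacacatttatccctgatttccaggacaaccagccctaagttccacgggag
Tnip3: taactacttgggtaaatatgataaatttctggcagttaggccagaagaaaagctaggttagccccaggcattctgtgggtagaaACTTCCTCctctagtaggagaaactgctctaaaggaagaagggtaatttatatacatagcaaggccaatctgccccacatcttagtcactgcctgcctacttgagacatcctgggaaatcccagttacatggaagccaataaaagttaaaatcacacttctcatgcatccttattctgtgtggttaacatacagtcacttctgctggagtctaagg

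For the shares, a gene was counted once if any of its windows held the motif, so a gene with more windows had more chances. The ETS-IRF composite was in 10 of 68 higher genes (14.7%) and 4 of 30 lower genes (13.3%), beside 9.0% of 11766 tested genes. The interferon response core, which can overlap the composite element, was in 11 of 68 (16.2%) and 3 of 30 (10%), beside 8.92%. The PU.1 site was in 9 of 68 (13.2%) and 1 of 30 (3.33%), beside 3.81%. The AP-1 site TGANTCA was in 3 of 68 (4.41%) and 6 of 30 (20%), beside 6.79%, and the KLF-type box GGGTGNGG in 17 of 68 (25%) and 4 of 30 (13.3%), beside 23.3%. Over all 27025 genes with a window in the table the shares were 9.42%, 9.76%, 3.69%, 8.97% and 18.4% in the same order. A match is a run of letters and not a measured site, and the shares were not tested.

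Among enzymes and receptors of lipid mediators and retinoids, 4 of 31 tested list members were higher in CD11b+ cells than in all 4 populations and 0 lower, beside 0.561% and 0.23% of all tested genes. Aldh1a2, the retinaldehyde dehydrogenase with which dendritic cells make retinoic acid, was at 516 and 479 CPM in the CD11b+ cells, 0 and 0.757 in the ductal macrophages, 30.7 and 53.2 in the stromal macrophages, 19.7 and 49.3 in the CD103+ cells and 20.2 and 14.2 in the CD103- cells. The groups did not overlap, and the smallest log2 fold change was 3.57 ± 0.49, against stromal macrophages (adjusted p = 0.00852). Leaving out CD11b+ replicate 1 or 2 ended this call (0.0743 and 0.0781). Lta4h, which makes leukotriene B4, was at 221 and 199 CPM against 41.0 to 69.0 CPM, and Ltb4r1, the high-affinity receptor for leukotriene B4, at 197 and 231 CPM against 0.911 to 41.2 CPM. The enzyme and the receptor were thus both above every other library, with smallest log2 fold changes of 1.61 ± 0.23 and 2.80 ± 0.39 (adjusted p = 0.0103 and 0.00903). The Lta4h call was lost without any CD11b+ or CD103- library (0.0585 to 0.120), and the Ltb4r1 call without either CD11b+ library or CD103+ replicate 1 (0.0743 to 0.0906).

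Ptgir, the receptor for prostacyclin, was at 39.3 and 36.4 CPM in the CD11b+ cells and at most 5.91 CPM elsewhere (smallest log2 fold change 3.06 ± 0.57, adjusted p = 0.0355), a call lost without any CD11b+, CD103+ or ductal library or stromal replicate 2 (0.0710 to 0.319). Ptger2, a receptor for prostaglandin E2, was at 47.8 and 34.5 CPM against at most 8.64 CPM. It was not called over all 4 populations. Alox5, which starts leukotriene synthesis, was at 24.7 and 35.5 CPM in the CD11b+ cells and 87.9 and 106 CPM in the stromal macrophages, lower than there with a log2 fold change of -1.69 ± 0.28 (adjusted p = 0.00143), and at most 0.724 CPM in the other 6 libraries. Hpgds, the haematopoietic prostaglandin D2 synthase, was at 2.13 and 1.62 CPM against 496 and 534 CPM in the ductal and 208 and 114 CPM in the stromal macrophages, lower with log2 fold changes of -8.05 ± 0.56 and -6.37 ± 0.53. Over the list the median log2 fold change was between 0.04 and 0.66 in the 4 comparisons, where the median of all tested genes was between -0.09 and 0.05.

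Among receptors for purines, nucleotides and metabolites, 3 of 37 tested were higher than in all 4 populations and 1 lower (0.561% and 0.23% of all tested genes). Hcar2, a receptor for niacin and β-hydroxybutyrate, was at 396 and 388 CPM in the CD11b+ cells, 56 and 28 in the ductal macrophages, 52.1 and 24.4 in the stromal macrophages, 6.19 and 3.96 in the CD103+ cells and 2.49 and 2.17 in the CD103- cells. Both CD11b+ libraries lay above all others (smallest log2 fold change 3.23 ± 0.42, adjusted p = 0.00749), and the call was lost without CD11b+ replicate 1 or 2 or ductal replicate 2 (0.0684, 0.0602 and 0.0668). Adora2b, a receptor for adenosine, was at 72.8 and 50.6 CPM against at most 7.74 CPM (adjusted p = 0.0195, lost without any CD11b+, CD103- or ductal library or CD103+ replicate 1, 0.0575 to 0.228). P2ry1, a receptor for ADP, was at 26.3 and 18.5 CPM against at most 2.60 CPM (adjusted p = 0.0272, lost in 8 of 10 fits, all but those without CD103- replicate 2 or stromal replicate 2, 0.0651 to 0.351).

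In the other direction, P2ry14, the receptor for UDP-glucose, was at 1.24 and 0.898 CPM in the CD11b+ cells, 18.5 and 11.54 in the ductal macrophages, 25.8 and 18 in the stromal macrophages, 44.7 and 71.5 in the CD103+ cells and 63.9 and 68.6 in the CD103- cells. The CD11b+ libraries were the lowest, with a smallest log2 fold change of -3.73 ± 0.42 (adjusted p = 0.00309, 0.0735 and 0.0601 without CD11b+ replicate 1 and 2). P2ry12, an ADP receptor known from microglia, was at 1.1 and 1.08 CPM against 42.6 and 48.2 in the ductal and 49.5 and 41.2 in the stromal macrophages. Gpr183, the oxysterol receptor that guides dendritic cells within lymphoid tissue, was at 9.7 and 5.92 CPM against 74.1 and 89.1 in the CD103+ and 103.1 and 125 in the CD103- cells, lower with log2 fold changes of -3.35 ± 0.28 and -3.83 ± 0.28 (adjusted p = 3.65e-05 and 1.68e-05). Lpar1, a lysophosphatidic acid receptor, was at 59.3 and 56.7 CPM in the CD11b+ cells and 43.2 and 52.2 CPM in the stromal macrophages, and at most 5.11 CPM in the other 6 libraries.

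Of 50 transcription factor genes tested, 2 were higher and 2 lower than in all 4 populations (0.561% and 0.23% of all tested genes). Irf8, the factor of the type 1 lineage (chromosome 8, 120736358 to 120756694), was at 19.9 and 15.3 CPM in the CD11b+ cells, 306 and 183 in the ductal macrophages, 133 and 91.2 in the stromal macrophages, 766 and 997 in the CD103+ cells and 1221 and 1113 in the CD103- cells. It was lowest in the CD11b+ cells, with a smallest difference of -2.66 ± 0.34 against stromal macrophages (adjusted p = 0.00622). Without CD11b+ replicate 1 or 2 the adjusted p was 0.0842 or 0.101. Batf, an AP-1 factor that pairs with IRF4 and IRF8 (chromosome 12, 85686720 to 85709087), was at 532 and 522 CPM in the CD11b+ cells, 99.3 and 95.1 in the ductal macrophages, 136 and 77.2 in the stromal macrophages, 34.2 and 35.4 in the CD103+ cells and 41.1 and 39.6 in the CD103- cells. It was highest in both CD11b+ libraries, by at least 2.30 ± 0.28 (adjusted p = 0.00397), and kept its call in every fit that left out 1 library.

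Batf3, known as a factor of the type 1 lineage, was not lower in the CD11b+ cells but at 108 and 153 CPM, above the 13.6 to 56.4 CPM of the other 8 libraries. Its log2 fold changes were 3.22 ± 0.30 against ductal and 2.41 ± 0.28 against stromal macrophages, 1.41 ± 0.27 against CD103+ cells and 1.31 ± 0.27 against CD103- cells, each called on its own (adjusted p = 0.00465 and 0.00758 against the dendritic cells). Against CD103+ cells the call was lost without CD11b+ replicate 2 or CD103+ replicate 1 (0.0521 and 0.0559), and against CD103- cells without CD11b+ replicate 2 or CD103- replicate 1 (0.0777 and 0.0609). It did not pass over all 4 at once. Irf4, known from the type 2 lineage, was at 89.2 and 55.5 CPM in the CD11b+ cells, 7.06 and 2.84 in the ductal macrophages, 28 and 34.7 in the stromal macrophages, 5.2 and 4.95 in the CD103+ cells and 2.69 and 13.6 in the CD103- cells. It was higher than in ductal macrophages (3.89 ± 0.68) and CD103+ cells (3.83 ± 0.64), and its difference from stromal macrophages, 1.21 ± 0.58, did not pass (adjusted p = 0.148).

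Klf4, which some type 2 dendritic cells need, was at 289.6 and 268 CPM in the CD11b+ cells, 311 and 188 in the stromal macrophages and 118 to 186 in the other dendritic cells, and of the 4 comparisons only that with ductal macrophages (3.01 ± 0.32) passed. Zeb2, a repressor on the side of type 2 cells and monocytes, was at 222 and 139 CPM against 13.9 and 9.07 in the CD103+ and 10.6 and 17.5 in the CD103- cells, higher by 3.98 ± 0.40 and 3.68 ± 0.39. Nfil3, a leucine zipper factor, was at 388 and 337 CPM against 97.9 to 159 CPM (smallest log2 fold change 1.41 ± 0.27, adjusted p = 0.0436), but no fit that left out a library kept this call (0.0554 to 0.415). Tcf4, an E protein known from plasmacytoid dendritic cells, was at 26.5 and 22.1 CPM against 63.6 to 265 CPM (smallest difference -1.39 ± 0.26, adjusted p = 0.0355) and kept its call in the 2 fits without a stromal library (0.0581 to 0.434 in the other 8).

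Of 14 MHC class II presentation genes, 1 was higher than in all 4 populations and 0 lower (0.561% and 0.23% of all tested genes). This was H2-DMb2, a chain of the H2-DM molecule that loads peptide. It was at 352 and 358 CPM in the CD11b+ cells, 43.7 and 38.8 in the ductal macrophages, 3.92 and 3.69 in the stromal macrophages, 78 and 100.1 in the CD103+ cells and 73.2 and 85.3 in the CD103- cells. The groups did not overlap (smallest log2 fold change 2.0 ± 0.22, adjusted p = 0.00309), and the call held in every fit that left out a library, though H2-DMb1 is a near-identical copy and reads could be split between them. H2-Ob, a chain of H2-DO, which holds H2-DM back, was at 29 and 21.7 CPM against 194 to 331 CPM in the other dendritic cells, lower with log2 fold changes of -3.36 ± 0.30 and -3.17 ± 0.30 (adjusted p = 4.62e-05 and 5.86e-05). H2-Oa, its partner, was at 7.43 and 8.8 CPM against 61.8 to 129 CPM in the same 4 libraries, lower with log2 fold changes of -3.72 ± 0.55 and -3.11 ± 0.54. H2-DMb2 was thus highest, and both chains of H2-DO were low beside the other dendritic cells. H2-DMa, another chain of H2-DM, was not called over all 4 populations. Cd74, the invariant chain, was at 38009 and 37643 CPM and differed from the CD103+ and CD103- cells by 0.27 ± 0.47 and 0.54 ± 0.47, without a call (adjusted p = 0.723 and 0.477). Cd74 was called lower than in ductal macrophages, a call lost without any CD11b+ or ductal library. Against stromal macrophages 13 of the 14 genes were higher and 1 lower (14.5% and 11.6% of all tested genes). Against ductal macrophages 2 were higher and 4 lower (11.4% and 11.9%). Against CD103+ cells 3 were higher and 3 lower (11.2% and 9.54%), and against CD103- cells 4 and 2 (9.62% and 7.93%).

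The 1 lower gene that kept its call in every fit was Aif1, which encodes IBA1, an actin-binding protein widely used to stain macrophages and microglia (chromosome 17, 35170986 to 35176083). It was at 11 and 13.3 CPM in the CD11b+ cells, 683 and 690.4 in the ductal macrophages, 333 and 296 in the stromal macrophages, 125 and 202 in the CD103+ cells and 156 and 175 in the CD103- cells. The CD11b+ libraries lay an order of magnitude below the next, the CD103+ cells, with a smallest difference of -3.76 ± 0.30 (adjusted p = 0.000484). Cyp27a1, the sterol 27-hydroxylase, was at 13.5 and 11.49 CPM against 68.8 to 172 CPM (smallest difference -2.83 ± 0.33, adjusted p = 0.0035; 0.0743 and 0.0809 without CD11b+ replicate 1 and 2). Tlr3, the receptor for double-stranded RNA, was at 1.65 and 1.62 CPM in the CD11b+ cells, 20.7 and 11.9 in the ductal macrophages, 8.0 and 19.6 in the stromal macrophages, 101 and 100.4 in the CD103+ cells and 99.6 and 137 in the CD103- cells. It was highest in the CD103+ and CD103- cells and lower in the CD11b+ cells than in either macrophage population (smallest difference -3.07 ± 0.48, adjusted p = 0.0154). Leaving out CD11b+ replicate 1 or 2 or ductal replicate 1 ended the Tlr3 call (0.261, 0.201 and 0.0857).

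**Figure D4:**
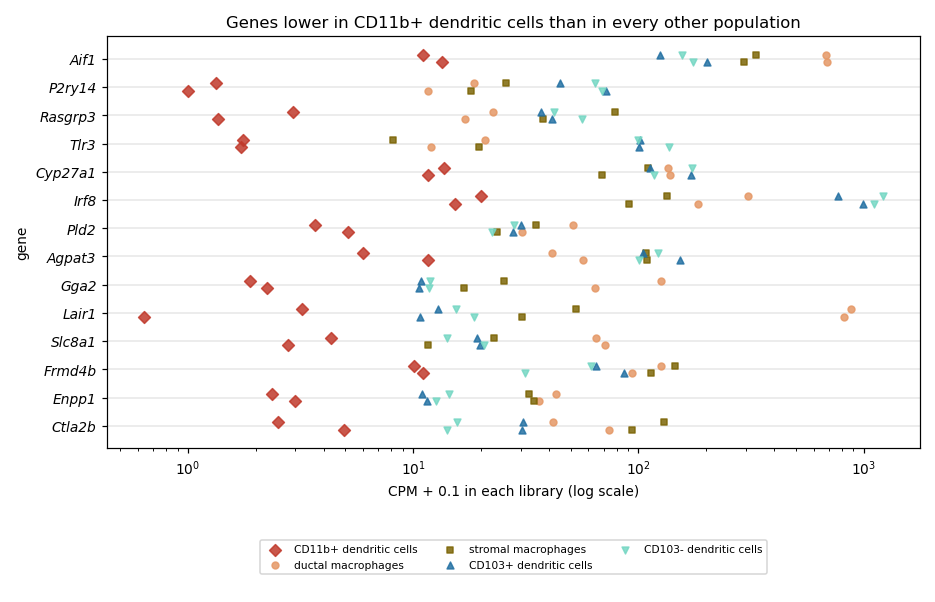
CPM plus 0.1 in each library (log scale) of 14 of the 15 genes with the largest smallest difference among those called lower in CD11b+ cells; each symbol is 1 library and shapes mark populations. Both CD11b+ libraries lie to the left of all 8 others in each gene, as in Aif1 and Irf8.

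Other lower genes encode enzymes. Pld2, a phospholipase D, was at 3.58 and 5.03 CPM against 22.3 to 51.0 CPM, and Agpat3, an acyltransferase of phospholipid synthesis, at 5.91 and 11.49 CPM against 41.2 to 153 CPM. Enpp1, an ectoenzyme that splits ATP and the cyclic dinucleotide cGAMP, was at 2.27 and 2.87 CPM against 10.9 to 42.8 CPM. Their smallest differences were -2.58 ± 0.36, -2.54 ± 0.35 and -2.14 ± 0.29 (adjusted p = 0.00903, 0.00852 and 0.00852). Leaving out either CD11b+ library ended the calls of Pld2 (0.181 and 0.0839) and Enpp1 (0.168 and 0.0781), and leaving out CD11b+ replicate 1 or ductal replicate 2 that of Agpat3 (0.124 and 0.0615).

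Rasgrp3, an activator of Ras and Rap, was at 2.82 and 1.26 CPM against 16.8 to 78.3 CPM (smallest difference -3.15 ± 0.46, adjusted p = 0.0107; 0.0831, 0.134 and 0.0728 without CD11b+ replicate 1, CD11b+ replicate 2 or ductal replicate 1). Frmd4b was at 9.97 and 11 CPM against 31.3 to 145 CPM (smallest difference -2.15 ± 0.35, adjusted p = 0.0173). Its call was lost without CD11b+ replicate 1, CD11b+ replicate 2 or CD103- replicate 1 (0.261, 0.201 and 0.0695). Lair1, an inhibitory receptor for collagen, lay just inside the threshold at 3.09 and 0.539 CPM in the CD11b+ cells, 875 and 816 CPM in the ductal macrophages and 10.6 to 18.5 CPM in the other dendritic cells (adjusted p = 0.0488). It kept its call in the 2 fits without a stromal library (0.0555 to 0.222 in the other 8). Gga2, Slc8a1 and Ctla2b, the remaining named lower genes, had smallest differences of -2.45 ± 0.40, -2.27 ± 0.39 and -2.12 ± 0.39 and lost their calls in 6 to 8 of 10 fits (0.0508 to 0.512), each of them without any CD11b+ or CD103+ library or CD103- replicate 2. Il16, a cytokine that attracts CD4+ cells, was at 18.7 and 15.8 CPM against 51.8 to 86.5 CPM (adjusted p = 0.0124; 0.133, 0.187 and 0.0994 without CD11b+ replicate 1, CD11b+ replicate 2 or ductal replicate 1).

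Of 38 C-type lectin receptor genes tested, 2 were higher than in all 4 populations (0.561% of all tested genes). Cd209a, the closest mouse counterpart of DC-SIGN, was at 1198 and 763 CPM in the CD11b+ cells, 0 and 0.567 in the ductal macrophages, 241 and 132 in the stromal macrophages, 33.5 and 22.3 in the CD103+ cells and 8.77 and 9.81 in the CD103- cells. The stromal macrophages were the nearest population, with a log2 fold change of 2.39 ± 0.40 (adjusted p = 0.0209), and the call was lost without CD11b+ replicate 1 or 2 or stromal replicate 2 (0.213, 0.0781 and 0.0874). Its family has several close copies on chromosome 8. Cd209d, one of them, was at 39.4 and 33.2 CPM in the CD11b+ cells and 307 and 231 CPM in the stromal macrophages, lower than there with a log2 fold change of -2.89 ± 0.31. Clec4e, the Mincle receptor for mycobacterial glycolipid, was at 1336 and 735 CPM in the CD11b+ cells, 157 and 82.7 in the ductal macrophages, 51.9 and 26.8 in the stromal macrophages, 0.834 and 3.52 in the CD103+ cells and 5.32 and 9.18 in the CD103- cells (smallest log2 fold change 3.11 ± 0.60, adjusted p = 0.0432, lost without any CD11b+, CD103- or ductal library, 0.0642 to 0.427).

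The lectins Mgl2 and Clec10a, used as markers of dermal type 2 dendritic cells and of alternatively activated macrophages, were shared with the stromal macrophages. Mgl2 was at 448 and 464 CPM in the CD11b+ cells, 762 and 611 in the stromal macrophages and 1.36 to 25.3 in the other dendritic cells. Clec10a was at 119.7 and 111 CPM, below the 583 and 381 CPM of the stromal macrophages (-2.06 ± 0.26, adjusted p = 0.000236) and above the 2.55 to 7.13 CPM of the other dendritic cells. Clec9a, the dead-cell receptor of type 1 cells, was at 2.75 and 1.08 CPM against 159.8 to 269.6 CPM in the other dendritic cells, and Xcr1, their chemokine receptor, at 7.63 and 2.69 CPM against 223 to 378 CPM. In all, 15 of 18 type 1 genes were lower than in CD103+ cells and 15 of 18 lower than in CD103- cells (9.54% and 7.93% of all tested genes).

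Among Fc and paired immunoglobulin receptors, 1 of 39 tested was higher than in all 4 populations (0.561% of all tested genes). This was Lilra6, at 99.5 and 97.3 CPM against 0.946 to 17.5 CPM (smallest log2 fold change 2.51 ± 0.34, adjusted p = 0.00852, lost without any CD11b+ or CD103- library, 0.0574 to 0.115). Its family has close copies, so this value is uncertain. Pilra, an inhibitory receptor, was at 269 and 236 CPM in the CD11b+ cells, 164 and 161 in the ductal macrophages and at most 6.57 in the other 6 libraries. Against the CD103+ and CD103- cells 22 and 23 of the 39 genes were higher, beside 11.2% and 9.62% of all tested genes. In each of these comparisons 3 were lower, which is near the share over all tested genes (9.54% and 7.93%). Havcr2, the TIM-3 checkpoint receptor, was at 20.8 and 11 CPM against 352 to 648 CPM in the other dendritic cells and 1199 and 1269 CPM in the ductal macrophages, lower in each. Its log2 fold changes were -5.08 ± 0.37, -4.47 ± 0.36 and -6.25 ± 0.39.

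Of 21 genes of Toll-like receptors and their adaptors, 1, Tlr3, was lower than in all 4 (0.23% of all tested genes). Tlr12, a receptor for protozoan profilin, had 1 count over both CD11b+ libraries and was at 335 and 307 CPM in the ductal macrophages and 18.4 to 24.8 CPM in the other dendritic cells. Tlr13, a receptor for bacterial ribosomal RNA, was at 12.4 and 9.16 CPM against 502 and 387 CPM in the ductal macrophages and 62.8 to 106 CPM in the other dendritic cells, lower with log2 fold changes of -5.34 ± 0.35, -2.98 ± 0.32 and -2.70 ± 0.31 (adjusted p = 3.83e-06, 0.000144 and 0.000231). Against ductal macrophages 9 of the 21 genes were lower and 1 higher (11.9% and 11.4% of all tested genes). Against stromal macrophages 7 were lower and 3 higher (11.6% and 14.5%). Against CD103+ cells 4 were lower and 7 higher (9.54% and 11.2%), and against CD103- cells 5 and 7 (7.93% and 9.62%).

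Of 24 tested genes of the type 2 response, 12 were higher and 3 lower in CD11b+ cells than in ductal macrophages (11.4% and 11.9% of all tested genes). Against stromal macrophages 11 were higher and 2 lower (14.5% and 11.6%). Against CD103+ cells 10 were higher and 1 lower (11.2% and 9.54%), and the counts against CD103- cells were equal to these (9.62% and 7.93%). Of 23 tested monocyte genes, the counts in the same order were 8 and 5, 10 and 3, 9 and 5, and 8 and 7. Retnla, a secreted protein induced by IL-4 and IL-13, was at 18695 and 24022 CPM in the CD11b+ cells, 6.61 and 14.9 in the ductal macrophages, 12386 and 7475 in the stromal macrophages, 15.4 and 10.9 in the CD103+ cells and 10.4 and 4.84 in the CD103- cells. It did not differ by the test from stromal macrophages (1.10 ± 0.47, adjusted p = 0.108) and was higher than in ductal macrophages by 10.94 ± 0.72 and in CD103- cells by 11.47 ± 0.73. Fcrls, an Fc receptor-like scavenger gene, was at 2658 and 2769 CPM, 542 and 417 CPM in the stromal macrophages and at most 11.7 CPM elsewhere. Its difference from stromal macrophages was 2.50 ± 0.65 (adjusted p = 0.0174; 0.0655, 0.0693 and 0.0618 without CD11b+ replicate 1, CD11b+ replicate 2 or stromal replicate 2). F13a1, coagulation factor XIII, was at 883 and 676 CPM in the CD11b+ cells, below the 6258 and 4756 CPM of the stromal macrophages (-2.82 ± 0.56, adjusted p = 0.00407; 0.0549 without CD11b+ replicate 2) and above at most 3.22 CPM in the other 6 libraries.

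Ccr2, the receptor by which monocytes leave the marrow, was at 1407 and 1014 CPM in the CD11b+ cells, 94.1 and 59.2 in the ductal macrophages, 145 and 75.97 in the stromal macrophages, 186 and 278 in the CD103+ cells and 305 and 449.6 in the CD103- cells. It was called higher in each comparison on its own, from 1.68 ± 0.39 against CD103- cells to 3.98 ± 0.43 against ductal macrophages, and did not pass over all 4 at once. The call against CD103- cells was lost without CD11b+ replicate 1 or CD103- replicate 1 (0.0973 and 0.103). Ly6c2, the Ly6C gene of classical monocytes, was at 2.41 and 1.97 CPM. Il1rl1, the receptor of the alarmin IL-33, was at 66.1 and 49.5 CPM against at most 7.33 CPM elsewhere. Il1rn, the IL-1 receptor antagonist, was at 1706 and 1241 CPM, against 427 and 462 in the ductal macrophages and at most 78.5 in the other 6 libraries, and was higher than in CD103+ and CD103- cells by 6.64 ± 0.57 and 8.94 ± 0.64.

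Of 26 chemokine ligand genes, 0 were called over all 4 populations in either direction. Against CD103+ cells 13 were higher and 5 lower (11.2% and 9.54% of all tested genes), and against CD103- cells 13 and 2 (9.62% and 7.93%). Against stromal macrophages 4 were higher and 8 lower (14.5% and 11.6%), and against ductal macrophages 7 and 4 (11.4% and 11.9%). Ccl9, which attracts dendritic cells and other CCR1-bearing cells, was at 2830.0 and 2030.0 CPM in the CD11b+ cells, 1503 and 1286 in the stromal macrophages and 6.84 to 12.3 in the other dendritic cells. Ccl2, the ligand of CCR2, was at 948 and 949 CPM, beside 1059 and 713 in the stromal macrophages (0.10 ± 0.30, adjusted p = 0.837) and at most 28.0 elsewhere. Of 18 chemokine receptor genes tested, 0 were called over all 4. Ccr7, which guides dendritic cells to lymph nodes, was at 147 and 92.8 CPM in the CD11b+ cells, 93.6 and 70.7 in the ductal macrophages, 0 and 0 in the stromal macrophages, 668 and 1235 in the CD103+ cells and 319 and 309 in the CD103- cells. The CD11b+ libraries were below all 4 libraries of the other dendritic cells, with a log2 fold change of -2.99 ± 0.37 against CD103+ cells (adjusted p = 0.000505), and the stromal macrophages had 0 counts. Cxcr3, a receptor for interferon-induced chemokines, was at 1.79 and 0.539 CPM against 33.9 to 54.9 CPM in the other dendritic cells, lower with log2 fold changes of -4.87 ± 0.47 and -5.25 ± 0.47.

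Among 26 integrin genes tested, Itgam, the gate marker CD11b itself, was the 1 called over all 4 (higher, beside 0.561% of all tested genes). In the CD11b+ cells 9 were lower than in CD103+ cells and 9 lower than in CD103- cells (9.54% and 7.93% of all tested genes), with 1 higher in each (11.2% and 9.62%). Itgb7, the β7 chain that pairs with CD103 or α4, was at 303 and 265 CPM in the CD11b+ cells, 562 to 1308 CPM in the other dendritic cells and at most 10.5 CPM in the macrophages. Against macrophages it was higher by 6.43 ± 0.44 (ductal) and 4.94 ± 0.38 (stromal). Itgal, the LFA-1 α chain, was at 28.7 and 18 CPM against 109 to 208 CPM in the other dendritic cells and 197 and 142 CPM in the ductal macrophages, lower in each. Its log2 fold changes were -2.48 ± 0.40, -2.79 ± 0.41 and -2.85 ± 0.41. Cadm1, an adhesion molecule of type 1 cells, was at 7.98 and 10.8 CPM against 644 and 717 in the ductal macrophages and 201 to 539.6 in the other dendritic cells.

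Genes of the cell cycle were higher in CD11b+ cells than in macrophages. Of 26, 19 were higher in CD11b+ cells than in ductal macrophages and 25 higher than in stromal macrophages, with 0 lower in either, beside 11.4% and 14.5% of all tested genes. Against CD103+ cells 2 were higher and 0 lower. Against CD103- cells 0 were higher and 2 lower. These counts were below the shares over all tested genes. Ube2c, which tags mitotic proteins for destruction, was at 153 and 149 CPM in the CD11b+ cells, 5.69 and 4.92 in the ductal macrophages, 4.53 and 10.3 in the stromal macrophages, 38.5 and 57.9 in the CD103+ cells and 73.1 and 115 in the CD103- cells. The CD11b+ libraries were above every other, without a call against CD103- cells (0.68 ± 0.36, adjusted p = 0.225). Plk1, a mitotic kinase, was at 15.6 and 20.3 CPM, 23.4 and 23.5 in the CD103- cells and 0.662 to 1.82 in the macrophages.

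**Figure D5:**
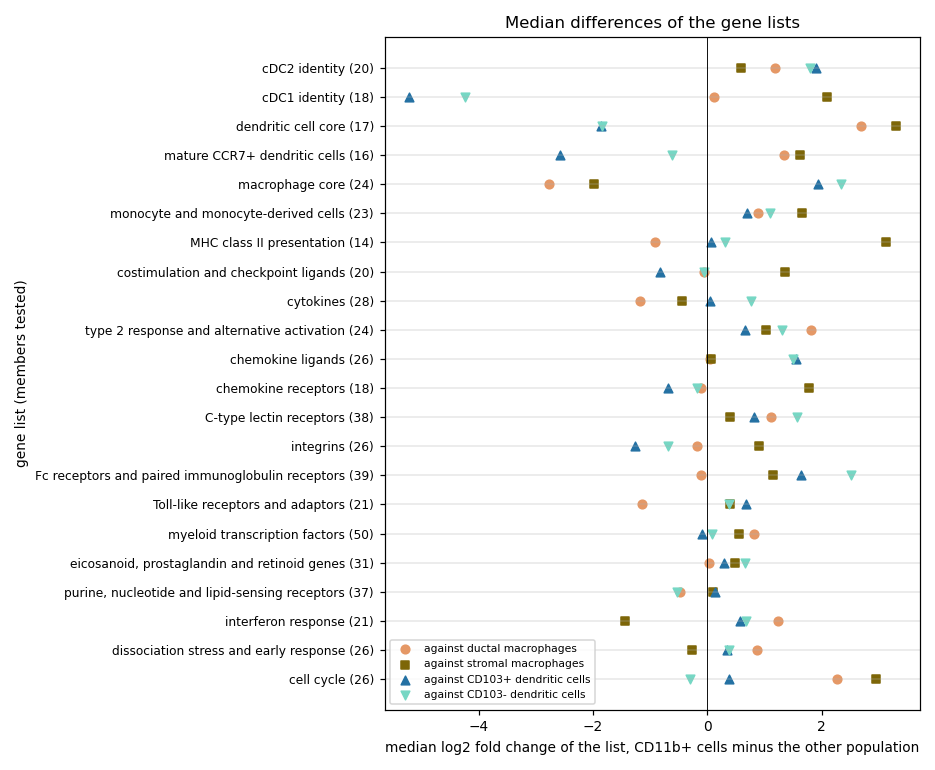
Median log2 fold change of each gene list (members tested in brackets), CD11b+ cells minus each of the 4 other populations, with 1 symbol per comparison. The type 1 dendritic cell list lies at -5.22 and -4.24 against the CD103+ and CD103- cells, and the type 2 list above 0 in the 4 comparisons (0.60 to 1.89).

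By median log2 fold change, the CD11b+ cells lay between the macrophages and the other dendritic cells in the macrophage and dendritic cell core lists. By summed CPM, the dendritic cell core list was higher in ductal macrophages than in the CD11b+ cells. The macrophage list had medians of -2.76 and -1.98 against ductal and stromal macrophages and 1.94 and 2.33 against CD103+ and CD103- cells. The dendritic cell core list had medians of 2.68 and 3.30 against the macrophages and -1.85 and -1.84 against the other dendritic cells. The lists of type 2 dendritic cell genes, of monocyte genes (0.70 to 1.65), of the type 2 response (0.65 to 1.81) and of C-type lectins (0.40 to 1.57) had a median above 0 in each of the 4 comparisons. Over all tested genes the medians were 0.05, -0.03, -0.09 and -0.05 against ductal macrophages, stromal macrophages, CD103+ and CD103- cells.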

How the data were processed

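Per the labels, 5 mammary gland populations from virgin C57BL/6 females were sequenced right after sorting, with paired-end reads and 2 biological replicates of each. The authors deposited raw counts, made with featureCounts on the mm10 build, per the submitters' processing notes, with no version stated. No aligner, annotation or strandedness is given in these sources. The series table also held each gene's length, another deposited value, which was not used in tests. Each of the 10 library tables equalled its column of the series table.

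Of 27179 Entrez gene IDs, 25275 were named from RefSeq, 18 from GENCODE and 1886 not at all (0.386% to 2.32% of counts); all stayed in the tests. Genes with low counts were removed with filterByExpr by population (minimum count 10, minimum total 15), leaving 15681. Counts were fitted in R 4.3.3 with edgeR 4.0.16 (TMM normalization, quasi-likelihood test, 5 residual degrees of freedom, common biological coefficient of variation 0.333) over all 10 libraries, since 2 libraries a population give few degrees of freedom alone. For a call over all 4 comparisons, the largest of the 4 p-values was taken where the 4 fold changes had 1 sign and 1 otherwise, then adjusted by Benjamini-Hochberg and called under 0.05. Standard errors were derived from each contrast's F statistic. The p-values measure the spread between the libraries, at totals of 5636092 to 23093742. CPM are scaled to TMM-adjusted totals. A population with 0 counts was set to 3 counts over its 2 libraries, a limit that covers counting error alone.

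The members, gene lists and tests were chosen with earlier results of these data known. Named genes were up to 25 higher and 15 lower by the smallest log2 fold change, with no overlap of libraries, a mean of at least 10 CPM in CD11b+ cells (higher) or in each other population (lower) and a proper symbol, then list members that were called or had the largest differences; Rac2 and Relt are shown as neighbours of the threshold. A lower gene that this rule names is not reported here. Other list members named, such as Tmem176b, Ly6c2, Batf3 and Ccr2, were chosen after their values were seen. Alternatives were RLE normalization, DESeq2 1.42.0, no count filter, fits of 2 populations, a replicate block, removal of mitochondrial genes, a test against a log2 fold change of 1, calls made separately in each comparison, and leaving out each library. The analysis was tested on simulated counts.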

Additional observations from a re-analysis of the deposited data

How the results depend on the processing

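The 88 higher and 36 lower genes against all 4 populations became 223 and 88 with DESeq2, which called all 88 and all 36, 160 and 63 without a filter on low counts, 92 and 35 with RLE normalization, 85 and 36 without mitochondrial genes, 113 and 23 with each pair of populations fitted alone, 22 and 6 in a test against a log2 fold change of 1, and 274 and 143 when a gene had only to be called in each comparison separately. Leaving out 1 library gave 14 to 98 higher and 1 to 35 lower genes.

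Against single populations, leaving out 1 library gave 794 to 2136 higher and 916 to 2093 lower genes than in ductal macrophages, 1235 to 2185 and 819 to 1822 than in stromal macrophages, 756 to 1999 and 527 to 1996 than in CD103+ cells, and 808 to 1729 and 391 to 1662 than in CD103- cells. The test against a log2 fold change of 1 gave 706 and 741, 890.0 and 723, 486 and 440.0, and 524 and 332 in the same order. Fitting CD11b+ and CD103+ cells alone gave 2487 lower genes. The cause of these changes was not tested, beyond that such fits hold fewer libraries or ask for a larger difference. Of 332 differences of single genes, none changed direction under an alternative that gave it a value. The fits of 2 populations alone gave none for 12 of them.

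Replicate numbers are shared by the populations, but the labels do not say that a number marks a shared mouse or day. Over the 10 pairs of populations, the correlation of deviations of same-numbered libraries was 0.102 to 0.177 in 4 (CD11b+ with ductal, CD11b+ with stromal, ductal with stromal, CD103+ with CD103-) and -0.176 to -0.124 in the 6 between the first 3 populations and the CD103+ or CD103- cells. Since the labels tie no number to a mouse or day, the numbers were not taken as pairs. Whether libraries shared a day in another arrangement was not tested. With a replicate block 55 genes were higher and 23 lower than in all 4 populations. With it 53 of the 332 differences of single genes no longer passed.

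With 2 libraries a population, the second CD11b+ library of 5745085 counts and a biological coefficient of variation of 0.333, small differences could not pass. A fit that leaves out a library has 1 library in that population, which is assumed to vary like the others.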

Other observations

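Interferon response genes were lower in the CD11b+ cells than in the stromal macrophages. Of 21 list members, 12 were lower and 0 higher (11.6% and 14.5% of all tested genes). Against ductal macrophages 11 were higher and 2 lower (11.4% and 11.9%). In the other comparisons 8 were higher and 3 lower than in CD103+ cells (11.2% and 9.54%), and 8 higher and 4 lower than in CD103- cells (9.62% and 7.93%). Ifit3, a member of this list, was at 14.3 and 14.9 CPM in the CD11b+ cells and 295 and 325 in the stromal macrophages. It was at 13.7 and 15.3 CPM in the ductal macrophages, 23.3 and 18.8 in the CD103+ cells and 18.4 and 12.6 in the CD103- cells. The stromal libraries were apart from all others, and the CD11b+ cells were lower with a log2 fold change of -4.41 ± 0.27 (edgeR's quasi-likelihood test, adjusted p = 7.51e-06). Isg15, a ubiquitin-like protein, was at 192 and 157 CPM in the CD11b+ cells, 297 and 288 in the stromal macrophages and 27.5 to 47 in the other 6 libraries, higher than in CD103- cells by 2.58 ± 0.27 (adjusted p = 0.000108).

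Genes of the early response to tissue dissociation, such as immediate early genes and heat shock genes, were counted in the same way. Of 26, 14 were higher and 1 lower in CD11b+ cells than in ductal macrophages, beside 11.4% and 11.9% of all tested genes. Against stromal macrophages 3 were higher and 7 lower (14.5% and 11.6%). The counts of 3 higher and 2 lower against CD103+ cells (11.2% and 9.54%) and 4 higher and 2 lower against CD103- cells (9.62% and 7.93%) were near the shares over all tested genes. The part of this list in the other results was not tested.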
